A study of Mus musculus with 7 samples.

Results

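Cytosolic ribosomal protein genes were followed across mouse neutrophils from healthy tissues and from inflamed sites. Genes were taken by symbol: those starting with Rpl or Rps and a digit, together with Rpsa, Rplp0, Rplp1 and Rplp2, and without pseudogene symbols or the Rps6k kinases. The rule gave 87 genes of the 28719 symbols listed in the 7 count tables, 53 with an Rpl symbol and 34 with an Rps symbol. Of these, 82 were listed in each table. Rpl23a, Rpl27, Rpl39l, Rpl7a and Rps12 were absent from at least 1 table of the first run. The symbol rule also takes in Rpl7l1 and Rps19bp1, which are not ribosomal proteins, and the paralogs Rpl3l, Rpl10l, Rpl22l1, Rpl36al, Rpl39l, Rpl6l, Rps27l and Rps27rt, and it leaves out genes such as Fau and Gnb2l1 (Rack1), which do encode ribosomal proteins.

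Live Ly6G+ CD11b+ cells were sorted from male C57BL/6J mice and profiled by droplet-based 3′ single-cell RNA sequencing, in which unique molecular identifiers (UMIs) count captured transcripts. Untreated mice gave blood, bone marrow and spleen in 2 runs. These mice were 6 weeks old in run 1 and 8 weeks old in run 2, and each library pooled the cells of 3 mice, which gave all tissues of that run. A further library held 5 hashtagged conditions, and the treated mice in it were 8 weeks old when serum was first given or at IL-1β. These were untreated blood, blood and joint lavage taken on day 7 after K/BxN arthritogenic serum on days 0 and 2 (150 µl each), and lung or peritoneal lavage taken 3 h after 25 ng IL-1β given into the nose or the peritoneum. Each condition was 1 pool of mice. Healthy cells were kept where S100a8 and S100a9 made up at least 3% of UMIs, which left 12755 cells. Inflammation cells were kept where the deposited annotation named a granulocyte type (4852 cells).

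Cytosolic ribosomes join a small and a large subunit, and each subunit carries a single copy of nearly all of its proteins. Their mRNAs are among the most abundant in growing cells and are translated together, because most start with a terminal oligopyrimidine (TOP) tract, a C followed by an unbroken run of C or T that the factor Larp1 and the mTOR pathway act on. Neutrophils leave the bone marrow after they stop dividing, and mature cells are known for a low RNA content.

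The start sites of 9 of the 10 members that differed between bone marrow and blood are given here, since the TOP tract is the feature by which this gene family is usually recognised. Each sequence runs from 10 bases before to 20 bases after a RefSeq start (GRCm38.p6, strand of the gene), and capitals mark the unbroken run of C or T that begins at the annotated start. Rpl15 and Rps6 are shown as members with long tracts.
Rpl15, chr14:18270967-18270996, minus strand: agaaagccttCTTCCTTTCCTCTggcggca
Rps6, chr4:86857348-86857377, minus strand: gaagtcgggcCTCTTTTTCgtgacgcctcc
Rps27, chr3:90213629-90213658, minus strand: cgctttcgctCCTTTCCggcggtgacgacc
Rps27rt, chr9:114982720-114982749, minus strand: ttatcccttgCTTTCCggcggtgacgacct
Rpl3l, chr17:24727816-24727845, plus strand: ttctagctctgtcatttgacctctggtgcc
Rpl37, chr15:5116603-5116632, plus strand: cctgggcggaagcttatccacaggaagtgg
Rpl41, chr10:128549149-128549178, minus strand: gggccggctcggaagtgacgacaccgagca
Rpl22l1, chr3:28805498-28805527, plus strand: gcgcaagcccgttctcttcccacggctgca
Rpl36al, chr12:69184048-69184077, minus strand: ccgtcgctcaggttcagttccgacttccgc
Rpl4, chr9:64173377-64173406, plus strand: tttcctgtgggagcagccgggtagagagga
Rps4x, chrX:102189372-102189401, minus strand: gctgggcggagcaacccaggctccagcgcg

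Of the 87 genes, 66 had a promoter entry. A C at the start within an unbroken C or T run of at least 5 bases was found in 14 of them (21.2%), against 813 of 27025 genes (3.01%) with an entry. Only the strand of the gene was read. The match is a description of the annotated start base, and no match says only that these letters are not at this base. The pair Rps27 and Rps27rt begin alike: 89.6% of the 96-base windows in the 3′ end of Rps27rt occur in another gene, so reads of the pair could have been split between them.

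All 15 genes of the neutrophil list had a UMI in every library and condition. The list holds S100a8 and S100a9, by which healthy cells were kept, so it is no independent test of cell identity. The kept cells held 1360064 to 9104133 UMIs per healthy library and 942688 to 10293966 per inflammation condition. In spleen run 2, B and T cell genes summed to 4047 CPM (UMIs scaled to a common total per library) in the kept cells, against 74.9 to 1108 CPM in the other healthy libraries. In blood run 2, red cell genes stood at 30388 CPM, against 254 to 916 CPM in the other healthy libraries. Across the 7 libraries 160 cell barcodes occurred more than once, 98 of them among kept cells.

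Ribosomal protein genes took a small share of neutrophil UMIs, and the share was lower in bone marrow than in blood in both runs. In run 1 it was 2.14% in blood, 1.76% in bone marrow and 1.64% in spleen. In run 2 it was 4.93% in blood, 2.98% in bone marrow and 6.62% in spleen. The lowest tissue was spleen in run 1 and bone marrow in run 2 among these cells. A further setting, called without other-lineage cells below, dropped each cell with a UMI of any of 57 other-lineage marker genes. Such a UMI is likelier in a cell with more UMIs, so the setting also favours cells with few UMIs. Under it bone marrow was lowest in both runs, at 1.33% against 2.31% in spleen in run 1. The same held for the mean of the cells' own shares among all kept cells (1.45% against 1.98% in run 1). The log2 ratio of bone marrow to blood was −0.28 in run 1 and −0.72 in run 2 (mean −0.50 ± 0.32, SD, n = 2 runs). The log2 ratio of spleen to blood was −0.38 in run 1 and 0.43 in run 2, so its mean of 0.02 ± 0.57 (SD, n = 2 runs) had no common direction. Without the other-lineage cells these ratios were −0.085 and 0.18. No test was made on the share, which has 2 libraries a tissue. Among all kept cells the counts per cell ran the other way. The median kept cell held 20 ribosomal protein UMIs in blood and 33 in bone marrow in run 1, and 40 and 52 in run 2. The median of all UMIs per cell was 809.5 in blood and 2698.5 in bone marrow in run 1, and 826 and 2133.5 in run 2. The lower share in bone marrow thus went with more UMIs in all per cell and not with fewer ribosomal protein UMIs per cell. Without other-lineage cells the ribosomal protein counts were close, at 18 in blood and 21 in bone marrow in run 1 and 39 and 40 in run 2, and among granule-low cells they were 20 and 21 in run 1 and 40 in both tissues in run 2. Tissues were separate libraries, so RNA per cell and depth per cell cannot be told apart in these counts.

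**Figure D1:**
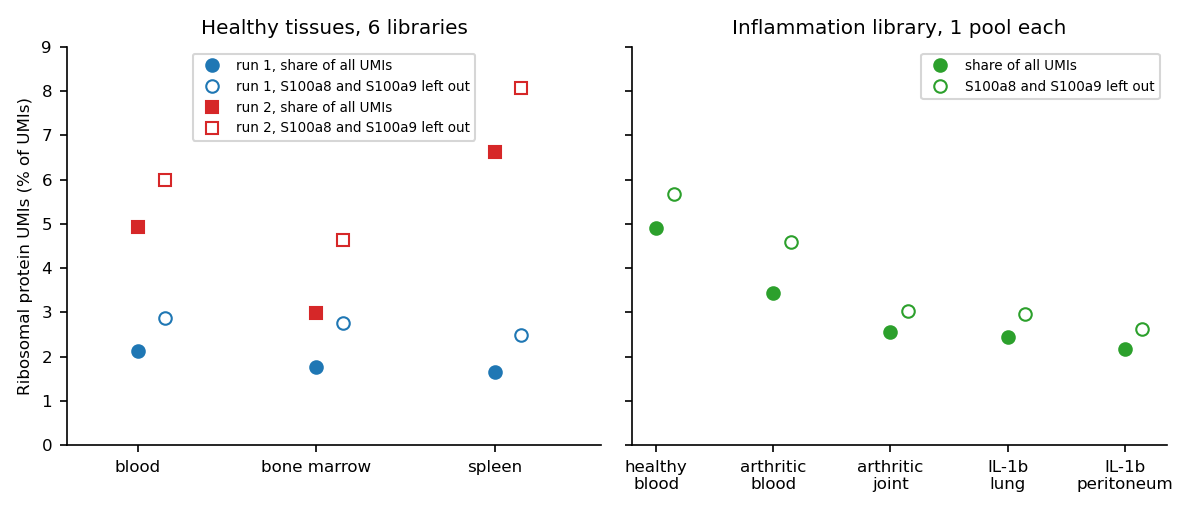
Ribosomal protein UMIs as a percentage of UMIs on a common vertical axis, in the 6 healthy libraries (left, by tissue and run) and in the 5 conditions of the inflammation library (right, 1 pool each). Filled points use all UMIs and open points leave out S100a8 and S100a9, and run 2 sits above run 1 in every tissue, from 1.64% in spleen run 1 to 6.62% in spleen run 2.

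Abundant neutrophil transcripts moved against the share between blood and bone marrow. S100a8 and S100a9, a calcium-binding pair stored in neutrophil cytosol, took 25.3% of UMIs in blood run 1 and 35.97% in bone marrow run 1, and 17.9% and 35.5% in run 2. With this pair left out of the total, the share was 2.86% in blood and 2.75% in bone marrow in run 1, and 6.00% and 4.63% in run 2. With the granule genes Camp, Ngp, Ltf and Lcn2 left out as well, a choice made after seeing the data, bone marrow stood above blood in run 1 (3.28% against 2.96%) and below it in run 2 (5.23% against 6.03%). The order of bone marrow and blood thus depends on what the total contains. Cells with none of the other-lineage marker UMIs gave log2 ratios of −0.88 and −0.81, more alike between runs than among all kept cells. However, 140 of 1206 kept bone marrow cells of run 1 passed that limit, which favours cells with few UMIs. With only the 44 members that were not more than 4-fold lower in run 1 (an alternative chosen after seeing the data), the ratios were −0.23 and −0.68.

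Within each library the share also differed by stage. Cells were called granule-high where the 4 granule genes made up at least 2% of UMIs. Granule genes are transcribed before neutrophils finish maturing. In run 1 the share was 1.13% in granule-high and 2.498% in granule-low cells of blood, 1.66% against 2.19% for bone marrow and 1.42% against 2.31% for spleen. In run 2 it was 2.56% against 5.01% for blood, 2.91% against 3.15% for bone marrow and 3.42% against 7.10% for spleen. The share was lower in granule-high cells in all 6 libraries, while their median count of ribosomal protein UMIs per cell was higher in all 6. In run 1 it was 22 in granule-high and 20 in granule-low cells of blood, 45 against 21 for bone marrow and 47 against 23 for spleen. In run 2 it was 61 against 40 for blood, 73 against 40 for bone marrow and 88 against 42 for spleen. All UMIs per cell were higher as well, with medians of 3519 and 1731 in bone marrow run 1. Granule genes and S100 genes sit in the denominator of these values: with them left out, the order turned in both bone marrow libraries (3.29% against 3.24%, and 5.48% against 4.79%) and in spleen run 1 (2.96% against 2.91%).

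Cells outside the S100 limit carried more ribosomal protein RNA. Their share was 9.35%, 10.9% and 15.8% in blood, bone marrow and spleen of run 1, and 22.6% and 30.4% in bone marrow and spleen of run 2. Blood run 2 was the exception at 2.81%, in the library with the red cell RNA. Leaving that library out, 79 of the 84 members with at least 20 CPM in run 2 were lower in the kept cells in all 5 remaining libraries, and the median member was at −2.80 on the log2 scale (kept over outside, 1 CPM added). Of 3354 other genes at that level, 34.4% were lower in all 5 libraries and the median was −0.29.

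Rpl3l was the only one of those 84 members whose median lay above 0. Rpl3l is a paralog of Rpl3 that is known from heart and skeletal muscle, where it replaces Rpl3 in the ribosome. Its level in the kept cells was 99.3, 25.9 and 39.8 CPM in blood, bone marrow and spleen of run 1, and 100.3, 24.4 and 78.2 CPM in run 2. Outside the limit it was 49.3, 6.52 and 10.6 CPM in run 1 and 11.4, 3.99 and 6.98 CPM in run 2. The kept cells were higher in all 6 libraries, with log2 ratios of 0.99 to 3.31. Rpl3 showed the other pattern, at 89.3, 133 and 353 CPM in the kept cells of run 2 and with a median log2 ratio of −4.45. The annotation (GENCODE M21, GRCm38) places Rpl3l at chr17:24727820-24736143 on the plus strand, with no overlapping gene and no 96-base window of its 3′ end in another gene.

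Rps9, a small-subunit protein near the mRNA entry of the ribosome, had the highest mean over the 6 healthy libraries, a rank that rests on the loss of Rps27 in run 1. The mean of Rps9 was 2808 CPM, followed by Rps27 (1885 CPM), Rpl41 (1780 CPM), Rpl37 (1305 CPM) and Rpl37a (1222 CPM). The places below it rest on that loss too. In run 2 alone the order was Rps27 (3743 CPM), Rps9 (3175 CPM), Rpl41 (2345 CPM), Rpl37 (1878 CPM), Rps29 (1747 CPM) and Rps27a (1715 CPM), with Rpl37a at 1396 CPM. In the healthy blood of the inflammation library Rps9, Rps27 and Rps27a led, at 3087, 2599 and 2392 CPM. Rps9 stood at 3316, 1802 and 2203 CPM in blood, bone marrow and spleen of run 1, and at 3950, 1655 and 3919 CPM in run 2. In spleen run 2 its level was 3919 CPM inside and 3959 CPM outside the limit. It made up 5.92% of ribosomal protein UMIs in those kept cells and 1.30% in the cells outside. These are UMIs of 3′ ends, 1 per captured transcript, and carry no length scaling.

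The level of many members differed between the runs. Of 84 members with at least 20 CPM in run 2 (mean of the 3 tissues), 40 were more than 4-fold lower in run 1, or 47.6%, against 111 of 3354 other genes (3.31%). With 0.5 CPM added to both levels, their run 2 level was 4.87 to 297 times the run 1 level (median 28.3). Of these, 5 (Rpl7a, Rpl15, Rpl23a, Rpl27 and Rps12) had at least 1 library of run 1 at 0 UMIs. For the remaining 44 members it was 0.854 to 3.22 times the run 1 level (median 1.30). Rpl6l (3.22-fold) lay just inside the limit and Rps25 (4.87-fold) just outside it.

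Rps27 had 49.3, 7.53 and 23.8 CPM in blood, bone marrow and spleen of run 1 and 4592, 1545 and 5093 CPM in run 2. Rps29, a zinc-binding small-subunit protein, had 16.2, 9.18 and 18.6 CPM in run 1 and 1794, 1199 and 2246 CPM in run 2. Rps27a, which is made as a fusion with ubiquitin, had 42.6, 13.9 and 20.5 CPM in run 1 and 1909, 1258 and 1979 CPM in run 2. Run 1 held only traces of these 3 genes in every tissue. Rpl35a, by contrast, had 638, 667 and 551 CPM in run 1 and 819, 639 and 982 CPM in run 2. Rps23, in the decoding centre, again had traces in run 1 (11.0, 9.89 and 8.19 CPM) and 711, 455 and 1023 CPM in run 2.

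Near copies differed between the members that were low in run 1 and the others. The median share of 96-base windows in the last 400 bases that also occur in another gene was 57.5% for the 40 low members and 18.6% for the others, and across 83 members it had a Spearman correlation of −0.56 with the log2 ratio of the runs, given as a description. Of the 40 low members 4 had no shared window, Rpl6, Rpl12, Rpl27a and Rps16, which were 30.2, 29.4, 15.6 and 6.77-fold lower in run 1, as had 13 of the others. Fau, a ribosomal protein gene outside the rule, was also low in run 1 (318 CPM against 4305 CPM in blood), and Ppia and Gapdh had 0 CPM in blood run 1. The authors used different Cell Ranger versions for the runs. The study's methods name v2 chemistry for both healthy runs and v3 for the inflammation library, whereas every sample is labelled with V1, V2 and V3, so the chemistry of run 1 could not be settled here. The part of version, chemistry or shared sequence in the loss was not tested. Tissues were therefore compared with the run as a block.

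**Figure D2:**
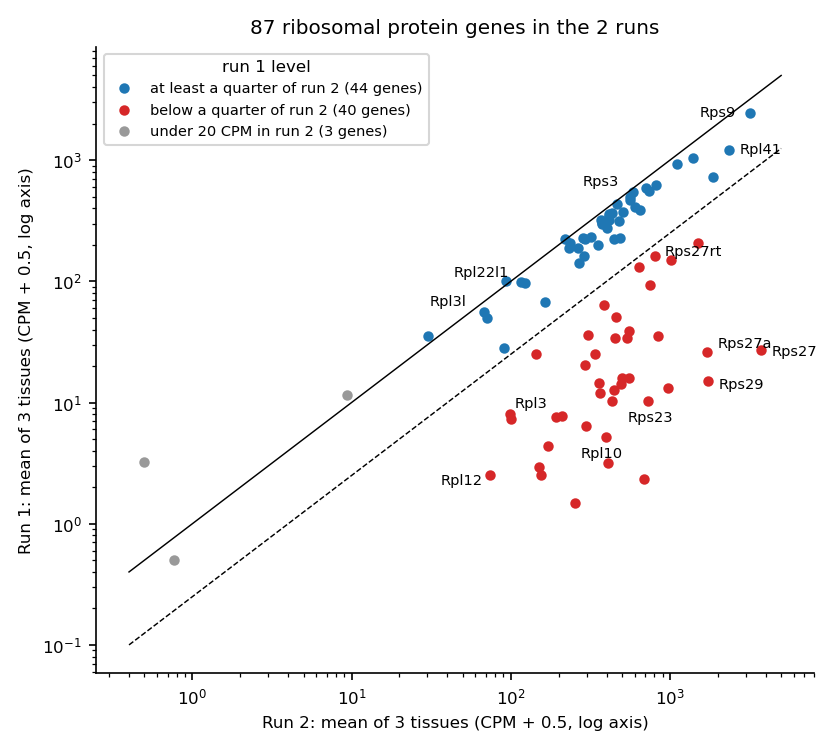
Mean CPM of 87 ribosomal protein genes over the 3 tissues in run 2 (horizontal) and run 1 (vertical), with 0.5 added and both axes logarithmic. The solid line marks equal levels and the dashed line a 4-fold lower level in run 1; 40 red points lie below the dashed line and 44 blue points follow the solid line.

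For single members, bone marrow was compared with blood by edgeR's quasi-likelihood test on summed counts, with the run as a block and p-values adjusted by the Benjamini-Hochberg method over 7809 genes. Of the 87 members, 85 passed the count filter, and Rpl10l and Rpl39l did not. At an adjusted p below 0.05, 4 members were higher and 6 lower in bone marrow (10 of 85). Over all genes 21.7% were called, 9.94% as higher and 11.7% as lower, which is the share to read the 10 of 85 against. The median member changed by −0.07 on the log2 scale and the median gene by 0.02. The 75 other members did not pass the test.

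The 4 higher members were Rpl22l1, Rpl36al, Rpl4 and Rps4x. Rpl22l1, the paralog of the RNA-binding protein Rpl22, had 61.8 CPM in run 1 and 62.9 CPM in run 2 for blood, 150 and 113 CPM for bone marrow, and 75.5 and 191 CPM for spleen. Both bone marrow libraries lay above both blood libraries, a log2 fold change of 1.37 ± 0.32 (SE, adjusted p = 0.0239, edgeR). In the cells outside the limit it was higher still, at 585 to 1500 CPM in the libraries other than blood run 2. Rpl36al, a paralog of Rpl36a, had 34.6 and 41.7 CPM in blood and 73.2 and 71.5 CPM in bone marrow, without overlap (log2 fold change 1.23 ± 0.26, adjusted p = 0.0188, edgeR). It overlaps Gm49383 on the same strand, so its counts are uncertain.

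Rpl4, a large-subunit protein that lines the exit tunnel of the ribosome, had 141 CPM in both blood libraries, 313 and 197 CPM for bone marrow, and 221 and 321 CPM for spleen. Its groups did not overlap between bone marrow and blood (log2 fold change 1.11 ± 0.25, adjusted p = 0.0221, edgeR). Rps4x, the X-linked small-subunit protein, had 99.3 and 192 CPM in blood and 234 and 231 CPM in bone marrow (log2 fold change 1.05 ± 0.29, adjusted p = 0.0434, edgeR). The B and T cell list stood at 74.9 CPM in bone marrow and 132 CPM in blood in run 1, and at 476 and 1108 CPM in run 2. The cycling list, with 15 of 16 genes detected in both bone marrow libraries and 12 and 15 in blood, summed to 708 and 746 CPM in bone marrow and 98.5 and 44.2 CPM in blood, and the part of either list in these calls was not tested. All 4 calls were lost, with the direction kept, with library totals as the only scaling and among granule-low cells. Without other-lineage cells Rpl22l1 turned to −0.07 and Rpl36al lost its call (0.70, adjusted p = 0.147, edgeR). Rps4x (0.78, adjusted p = 0.00603) and Rpl4 (0.59, adjusted p = 0.04999, both edgeR) were still called there.

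The 6 lower members were Rps27rt, Rps27, Rpl3l, Rpl37, Rpl17 and Rpl41. Rps27rt, an intronless copy of Rps27, had 290 and 1215 CPM for blood, 51.3 and 218 CPM for bone marrow, and 144 and 968 CPM for spleen. Within each run bone marrow was the lowest tissue, and the log2 fold change was −2.20 ± 0.22 (adjusted p = 0.00249, edgeR). Rps27 itself was also lowest in bone marrow in both runs (log2 fold change −1.77 ± 0.33, adjusted p = 0.0129, edgeR), from the values given above.

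Rpl3l was lowest in bone marrow in both runs as well, at 25.9 and 24.4 CPM against 99.3 and 100.3 CPM in blood (log2 fold change −1.70 ± 0.24, adjusted p = 0.00549, edgeR). The calls of Rps27rt, Rps27 and Rpl3l also held with library totals, among granule-low cells and without bone marrow replicate 1.

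Rpl37, a small zinc-binding protein of the large subunit, had 1218 and 2216 CPM in blood and 361 and 1037 CPM in bone marrow (log2 fold change −1.15 ± 0.27, adjusted p = 0.0246, edgeR). Rpl41, the shortest ribosomal protein, had 1692 and 2815 CPM in blood and 825 and 1226 CPM in bone marrow (log2 fold change −0.83 ± 0.23, adjusted p = 0.0428, edgeR). Rpl17, a protein at the tunnel exit, had 19.9 and 1072 CPM in blood and 5.18 and 493 CPM in bone marrow (log2 fold change −1.11 ± 0.29, adjusted p = 0.0336, edgeR). Its run 1 level rests on few counts. These 3 were lower in bone marrow in both runs, and their calls were lost among granule-low cells. The B and T cell list, at the values given above, was higher in blood in both runs. The red cell list stood at 708 CPM in blood and 916 CPM in bone marrow in run 1, and at 30388 and 306 CPM in run 2. Without other-lineage cells, a setting that does not count haemoglobin genes among its markers, 5 of the 6 lower members were still called. They stood at −1.61 for Rps27rt, −0.96 for Rps27, −0.93 for Rpl3l, −0.76 for Rpl41 and −0.61 for Rpl37. Rpl17 was not called there (−0.58, adjusted p = 0.0743, edgeR).

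**Figure D3:**
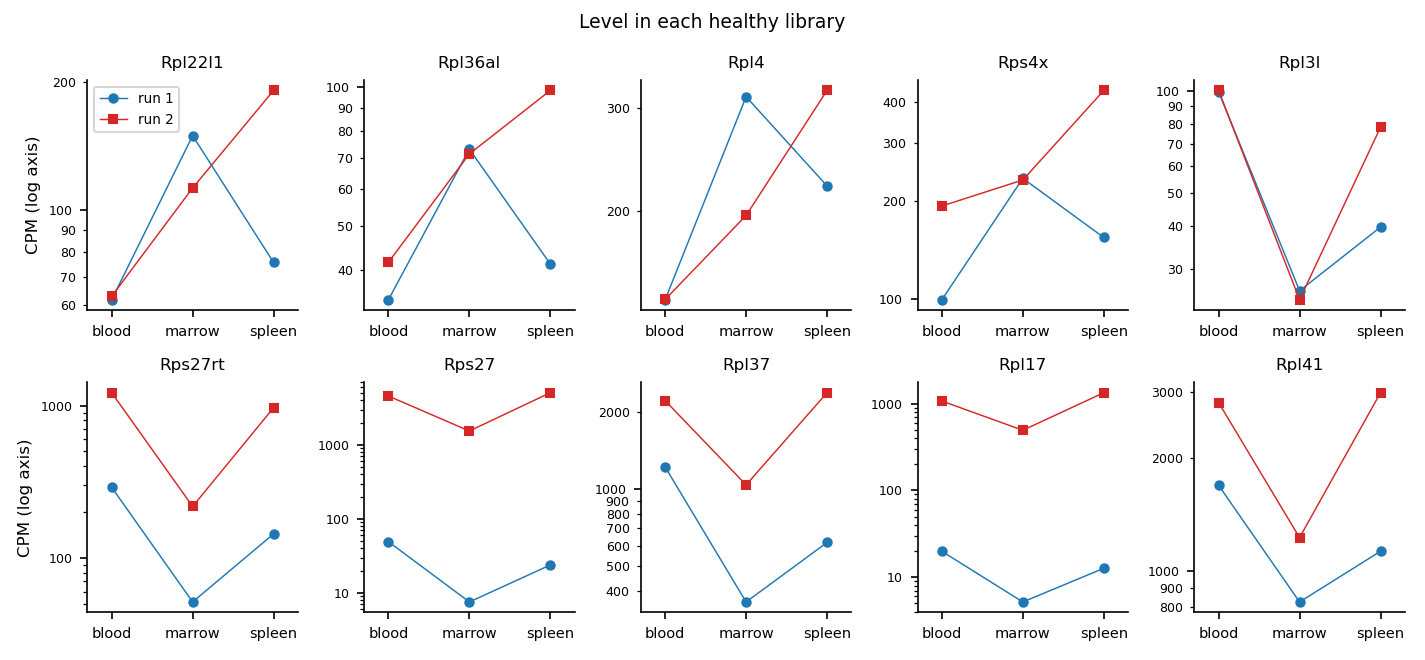
CPM (log axes) of the 10 called members in blood, bone marrow and spleen, with 1 line for each run (run 1 circles, run 2 squares). The upper row holds the 4 members higher in bone marrow and Rpl3l, and the lower row 5 members lower in bone marrow, which dip in bone marrow in both runs.

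Rpl3, Rps18 and Rpl10a lay at least 1 log2 unit above the median member without passing the test. Rpl3 had 2.21 and 89.3 CPM in blood and 11.1 and 133 CPM in bone marrow (log2 fold change 1.32 ± 0.39, adjusted p = 0.0528, edgeR). Rps18, at the head of the small subunit, had a log2 fold change of 1.02 ± 0.41 (adjusted p = 0.123, edgeR). Rpl10a, of the mobile L1 stalk, had 1.13 ± 0.65 (adjusted p = 0.254, edgeR). Rpl3 and Rpl3l thus had opposite signs, and the difference between them was not tested.

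The calls depended on the block and on single libraries. Without the run as a block no member was called by edgeR, and 164 genes were called in all (2.1001%). At an unadjusted p below 0.05 stood 6 of 85 members and 25.9% of all genes. Without blood replicate 1 or blood replicate 2 no member was called either, where 0.655% and 0% of all genes were called. At an unadjusted p below 0.05 these fits had 7 and 19 of 86 members, against 18.8% and 24.9% of all genes. The count was 3 without bone marrow replicate 1 (19.8% of all genes), 14 without bone marrow replicate 2 (12.1%), 26 without spleen replicate 1 (29.99%) and 19 without spleen replicate 2 (28.6%). DESeq2 called 14 members, and 7.97% of the 13712 genes.

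**Figure D4:**
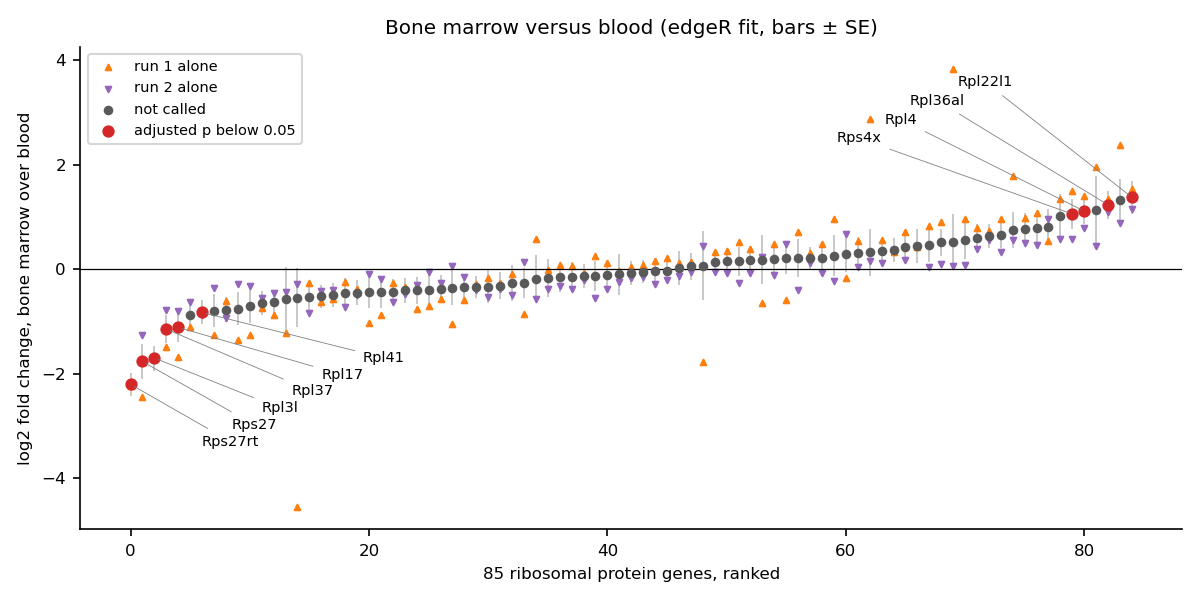
log2 fold change of bone marrow over blood for 85 ribosomal protein genes in rank order (edgeR fit, bars ± SE), with the ratio of each run alone as triangles. The 10 red points are the called members, from −2.20 for Rps27rt to 1.37 for Rpl22l1, and run 1 triangles scatter widely where run 1 held few counts.

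Between spleen and blood, of 85 members 0 were called by edgeR, and over all genes 0.0512% were called. At an unadjusted p below 0.05 stood 17 members and 801 of 7809 genes (10.3%). DESeq2 called 1 member and 0.211% of all genes. The median member lay at 0.24 and the median gene at 0.02 on the log2 scale. The members furthest above 0 were Rpl3 (1.80 ± 0.39, adjusted p = 0.244), Rpl12 (1.63 ± 0.46, adjusted p = 0.387) and Rpl10a (1.46 ± 0.62, adjusted p = 0.483, all edgeR). Those furthest below 0 were Rpl3l (−0.70 ± 0.24, adjusted p = 0.442) and Rps27rt (−0.55 ± 0.21, adjusted p = 0.466, both edgeR), each lower in both runs, with Rps27a at −0.36 and Rpl37 at −0.33. Rpl12, a protein of the stalk base, had 35.6 CPM in blood and 152 CPM in spleen of run 2 but 2.94 and 1.49 CPM in run 1, so its runs pointed in opposite directions. B and T cell RNA in the kept cells stood at 8.03% of the level outside the limit in spleen run 2 (4047 CPM) and at 24.1% in blood run 2 (1108 CPM), and its part in these values was not tested. Without spleen replicate 2 the log2 fold changes of Rpl10a and Rpl12 turned to −0.69 and −0.13.

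Bone marrow and spleen differed for 1 member. Rps27rt was lower in bone marrow (log2 fold change −1.66 ± 0.22, adjusted p = 0.0209, edgeR), 1 call of 85. Over all genes 2.75% were called, 0.512% as higher and 2.24% as lower. Rps27 (−1.46 ± 0.32, adjusted p = 0.0709), Rpl12 (−1.45 ± 0.43, adjusted p = 0.149) and Rpl17 (−1.13 ± 0.28, adjusted p = 0.0954, all edgeR) followed without passing. At the other end, Rpl22l1 stood at 0.89 in run 1 and −0.34 in run 2, and Rpl36al at 0.72 and −0.04. The median member lay at −0.34 on the log2 scale. Without other-lineage cells 36 members were called, all as lower, where 15.03% of the 4551 genes tested were called. That setting also favours cells with few UMIs, and the part of depth in these calls was not tested.

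Other genes of the translation machinery were described from lists in the same fit of bone marrow against blood. Of 71 tested mitochondrial ribosomal protein genes, 17 rose, 0 fell and 54 did not pass, with a median of 0.74 on the log2 scale against 0.02 for all genes. As above, 9.94% of all genes were called as higher and 11.7% as lower, the shares to read each list against. The lists held far fewer calls among granule-low cells and without the run as a block, as given in the section on processing. Mrpl45 had 2.94 and 1.44 CPM in blood and 16.01 and 17.7 CPM in bone marrow (log2 fold change 3.39 ± 0.60, adjusted p = 0.0114, edgeR), and Mrps11 had 2.94 and 2.01 CPM in blood and 11.8 and 7.25 CPM in bone marrow (2.17 ± 0.53, adjusted p = 0.0281, edgeR). Mitochondrial ribosomes make the proteins encoded by mitochondrial DNA. Neither group of libraries overlapped the other for these genes. The neutrophil precursor list, with 12 of 12 genes detected in both bone marrow libraries and 6 and 9 in blood, summed to 1989 and 2690 CPM in bone marrow and 285 and 731 CPM in blood, and its part and that of the cycling list in these values were not tested.

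Of 38 initiation factors, 5 rose and 0 fell, among them the eIF3 subunit Eif3e (11.0 and 12.6 CPM in blood, 42.4 and 31.96 CPM in bone marrow, log2 fold change 1.89 ± 0.27) and Eif2s1, which carries the phosphorylation site of the stress response (1.82 ± 0.32). Of 32 ribosome biogenesis genes, 1 rose (Ebna1bp2, 1.01 ± 0.26) and 31 did not pass. Of 18 regulators of these mRNAs 2 fell: Eif4ebp1, the eIF4E-binding target of mTOR (357 and 415 CPM in blood, 166 and 187 CPM in bone marrow, −0.84 ± 0.22), and the Myc antagonist Mnt (−1.54 ± 0.37). Of 19 elongation factors and other TOP mRNAs, Hnrnpa1 rose (1.40 ± 0.33) and Fau fell (−1.38 ± 0.27). Of 13 p53 and ribosome stress genes, Rpl22l1 rose and Ddit3 fell (−1.93 ± 0.26). In spleen against blood none of these lists held a call by edgeR, in a comparison that called 4 genes in all.

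In the inflammation library the share of UMIs was lower in each inflamed condition than in healthy blood. It was 4.90% in healthy blood (95% exact binomial interval 4.86 to 4.94%), 3.45% in arthritic blood (3.43 to 3.47%), 2.55% in the arthritic joint (2.54 to 2.56%), 2.45% in the IL-1β lung (2.43 to 2.48%) and 2.17% in the IL-1β peritoneum (2.14 to 2.20%). Intervals cover counting error only, with 1 pool for each condition and no test. The 4 log2 ratios to healthy blood were −0.51, −0.94, −0.998 and −1.17 in that order. The median cell held 123 ribosomal protein UMIs in healthy blood, 122 in arthritic blood, 84 in the joint, 91 in the lung and 69 in the peritoneum, of 2527, 3580, 3531, 3681 and 3475.5 UMIs in all. In arthritic blood the lower share thus stood beside a near equal count of ribosomal protein UMIs and a higher total per cell, and at the other 3 sites beside fewer ribosomal protein UMIs and a higher total. Without cells holding other-lineage UMIs the median of the cells' own shares turned, at 1.93% in healthy blood, where the median cell held 890.5 UMIs, 2.77% in arthritic blood and 2.16% in the joint, whereas the lung (1.69%) and the peritoneum (1.37%) remained below healthy blood. Leaving out S100a8 and S100a9 kept the order, from 5.69% in healthy blood to 2.61% in the peritoneum.

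Most genes were also lower than in healthy blood on the CPM scale. The trimmed mean of M-values (TMM) factors, which centre the bulk of genes, ran from 1.48 in healthy blood to 0.79 in lung and peritoneum and shift these log2 ratios by 0.46, 0.56, 0.90 and 0.91. On the TMM scale, chosen after seeing the data, the 4 log2 ratios of the share became −0.05, −0.38, −0.10 and −0.26. The order thus changed with the scale: the peritoneum was furthest from healthy blood on the CPM scale and the joint on the TMM scale.

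Members were called here when past 1.5-fold, with at least 50 UMIs over the pair. In arthritic blood 43 of 83 members were past 1.5-fold lower (28.2% of all genes), in the joint 75 of 84 (42.8%), in the lung 78 of 83 (58.2%) and in the peritoneum 80 of 83 (58.9%). No member was past 1.5-fold higher in any of them, against 2.48%, 15.8%, 17.1% and 16.4% of all genes. The median member was at −0.61, −1.01, −1.11 and −1.27 on the log2 scale, below the median gene at −0.37, −0.44, −0.84 and −0.87. On TMM-scaled CPM 7, 22, 12 and 23 members were past 1.5-fold lower, against 5.18%, 17.9%, 28.3% and 28.5% of all genes, and 0, 1, 2 and 0 members were past it higher, against 10.8%, 29.5%, 33.5% and 33.5%. These 4 comparisons share the healthy blood pool, so their values are not independent.

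**Figure D5:**
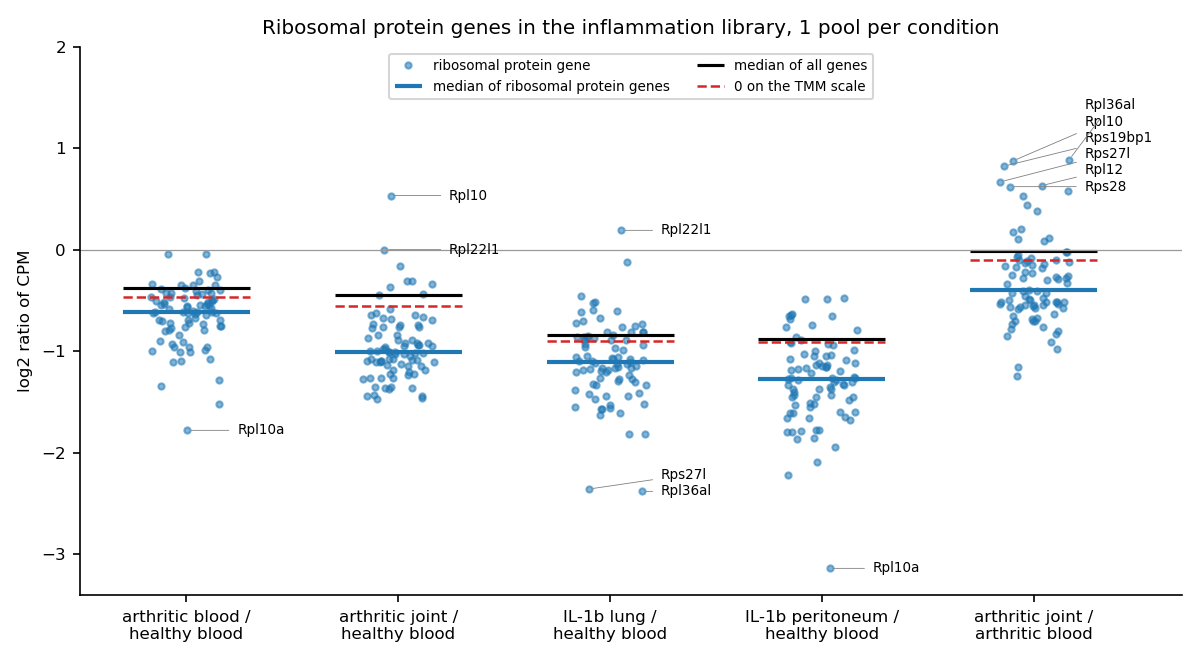
log2 ratio of CPM for each ribosomal protein gene (blue points) in 5 pairs of conditions, with medians of members (blue) and of all genes with at least 50 UMIs (black). The dashed red line is where 0 falls on the TMM scale, and named genes lie at least 1 log2 unit from the median member, such as Rpl10 at 0.54 in the joint and Rpl10a at −3.14 in the peritoneum.

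Rpl10 stood apart in the joint. Rpl10 is the X-linked large-subunit protein that joins the particle last, in the cytoplasm. It had 405 CPM in healthy blood, 320 CPM in arthritic blood, 588 CPM in the joint, 285 CPM in the lung and 234 CPM in the peritoneum. On the CPM scale the joint was the only inflamed condition above healthy blood, with a log2 ratio of 0.54 (95% interval 0.40 to 0.68), and all but 2 of the 84 members lay below 0 there. On the TMM scale all 4 conditions were above it, at 0.12 in arthritic blood, 1.09 in the joint, 0.39 in the lung and 0.12 in the peritoneum. Against arthritic blood the ratio was 0.88 (0.77 to 0.98). Of the 96-base windows in its 3′ end 84.8% occur in other genes, among them Rpl10-ps3, Rpl10-ps1 and Rpl10-ps5.

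The paralogs had varied ratios. Rpl22l1 had 31.1 CPM in healthy blood, 21.5 CPM in arthritic blood, 31.2 CPM in the joint, 35.6 CPM in the lung and 22.3 CPM in the peritoneum. Its log2 ratios were −0.53 (−1.16 to 0.12), 0.00 (−0.50 to 0.55), 0.19 (−0.47 to 0.87) and −0.48 (−1.34 to 0.34) in that order, so on the CPM scale no change was detectable at these counts. On the TMM scale these ratios were −0.07, 0.56, 1.09 and 0.43, and the joint ratio was below 1.5-fold while the lung was past it. Rps27l, a p53-induced relative of Rps27, had 96.9 CPM in healthy blood, 38.2 CPM in arthritic blood, 60.9 CPM in the joint, 18.9 CPM in the lung and 39.2 CPM in the peritoneum. Its lung ratio was −2.36 (−3.05 to −1.72). Rpl36al was at −2.38 (−3.33 to −1.53) in the lung, 10.6 CPM against 55.1 CPM, on 14 and 62 UMIs. Rpl3l had 53.3 CPM in healthy blood and 42.3, 47.7, 29.5 and 38.2 CPM in arthritic blood, joint, lung and peritoneum. Its log2 ratios were −0.33, −0.16, −0.85 and −0.48 on the CPM scale and turned to 0.13, 0.40, 0.05 and 0.43 on the TMM scale.

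Rpl10a had the lowest log2 ratio of the members in arthritic blood and in the peritoneum. It had 56.0 CPM in healthy blood, 16.3 CPM in arthritic blood, 24.4 CPM in the joint, 18.9 CPM in the lung and 6.36 CPM in the peritoneum. The ratios were −1.78 (−2.37 to −1.20) in arthritic blood and −3.14 (−4.64 to −1.94) in the peritoneum, the latter on 6 UMIs against 63. Rps4x had the next lowest ratio in the peritoneum (39.2 CPM against 183 CPM, −2.22). In the joint the lowest ratios were those of Rpl11, which with Rpl5 and the 5S RNA binds Mdm2 (191 CPM against 530 CPM, −1.47), and Rps27a (873 CPM against 2392 CPM, −1.45). Rps18, of the small-subunit head, was at −1.82 in the lung (−2.28 to −1.38).

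Rps9 and Rpl37, highly abundant members, had the highest ratios in arthritic blood, near 0 on the CPM scale and at 0.42 and 0.43 on the TMM scale, where the median member was at −0.15. Rps9 had 2999 CPM against 3087 CPM (−0.04, −0.10 to 0.02) and Rpl37 1802 CPM against 1847 CPM (−0.04, −0.11 to 0.04). In the joint they stood at 1669 and 962 CPM. Between joint and arthritic blood, both taken on day 7, 6 of 84 members were past 1.5-fold higher (24.3% of all genes) and 17 past it lower (20.1%), with a median member of −0.40 against −0.01 for all genes. On TMM-scaled CPM 8 were past it higher (26.7%) and 14 lower (16.6%). Rps27a (−1.24, −1.29 to −1.19) and Rps4x (−1.15, −1.33 to −0.97) were lowest. Rpl36al (0.89), Rpl10 (0.88), Rps19bp1 (0.83, on 61 and 9 UMIs), Rps27l (0.67), Rpl12 (0.63) and Rps28 (0.62) were highest.

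The look-alikes and rare paralogs had low levels. Rpl7l1, a nucleolar factor related to Rpl7, had 27.0 to 42.9 CPM in the healthy libraries and 20.05 to 33.8 CPM in the inflammation library. Rps19bp1, a binding partner of Rps19, had 7.18 to 14.7 CPM in the healthy libraries. Rpl10l, a retrogene of Rpl10 known from testis, had 2.94, 1.18 and 4.09 CPM in run 1 and 0 elsewhere, where a count of 0 allows up to 0.291 to 3.18 CPM (3 counts, counting error only). Rpl39l had 0 to 4 UMIs in each library or condition, near or below that limit. Rpl6l had 25.2 to 31.6 CPM in run 1, 60.6 to 125 CPM in run 2 and at most 3.78 CPM in the inflammation library.

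The translation lists were mostly lower in the lung and peritoneum on the CPM scale. Of 16 elongation factors and other TOP mRNAs with enough UMIs, 14 were past 1.5-fold lower in the lung (58.2% of all genes) and 14 in the peritoneum (58.9%), with TMM medians of −0.49 and −0.38. Mitochondrial ribosomal protein genes had medians of −1.91 (21 genes) and −1.78 (20 genes), which remained at −1.01 and −0.87 on the TMM scale. Initiation factors had medians of −0.66 and −0.80, above the median gene at −0.84 and −0.87, and turned to 0.25 and 0.11 on the TMM scale. Of 25 in the lung 13 were past 1.5-fold lower and 4 higher, and of 24 in the peritoneum 18 lower and 3 higher. Fau had 5522 CPM in healthy blood, 4573 CPM in arthritic blood, 3377 CPM in the joint, 3171 CPM in the lung and 2780 CPM in the peritoneum, the order of the members' share.

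Genes whose level followed the members' share most closely were named by their Pearson correlation over 11 points (6 healthy libraries and 5 conditions) among 1967 genes with a mean of at least 50 CPM, on log2 scales. They were Tmed2 (0.90), Btf3 (0.90), Psma3 (0.89), Gabarapl2 (0.88) and Pcnp (0.88). Without run 1, Btf3 was at 0.99 over 8 points and Pcnp at 0.80. The points share runs, libraries and mice and mix chemistries (v2 and v3 per the study's methods), so these are descriptions. Btf3, the nascent polypeptide-associated complex subunit that binds emerging chains at the ribosome, had 280, 206 and 324 CPM in blood, bone marrow and spleen of run 2 and 302 CPM in the healthy blood of the inflammation library.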

How the data were processed

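Per the labels and the study's methods, the authors aligned reads to mm10 with Cell Ranger (1.2.0 for run 1, 2.1.0 for run 2, 3.0.2 for the inflammation library) and deposited UMI counts per gene and cell, with no normalization. The authors gated out doublets at the sort, removed hashtag doublets, and in their analysis left out cells with the highest gene numbers as possible doublets. The deposited healthy tables still hold such cells, the study's cell limits were tried as an alternative, and no doublet caller was run. Counts of kept cells were summed per library or condition. Healthy tissues were tested with edgeR 4.0.16 (quasi-likelihood, TMM factors, filterByExpr), with tissue and run as terms, because 1 set of mice gave all tissues of a run. Samples of 1 run deviated together (correlations of 0.59, 0.54 and 0.64 over 7809 genes). DESeq2 1.42.0 was an alternative. The test was also run on simulated counts that held no run effect, so that check does not cover the run differences seen here. Libraries of a tissue are pools of 3 mice. With the run as a block, p-values set a tissue difference against how much it varied between the runs, with the spread partly shared over genes. They do not measure the spread between mice. Conditions of the inflammation library were compared by CPM ratios with 95% exact conditional intervals. Start sites and near copies came from RefSeq (GRCm38.p6) and GENCODE M21 transcripts (86 of 87 genes found).

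Named members were taken from the 5 most abundant, the 4 highest and 4 lowest in each comparison, those 1 log2 unit or more from the median member, the measured paralogs and up to 4 called genes of each list. Members and lists were chosen with earlier results of these data known. Near copies such as Rps27 and Rps27rt are uncertain where the counting could split reads. Rpl3 and Rpl22l1 shared 96-base windows of their 3′ ends with other genes, whereas Rpl3l and Rpl22 shared none. Results for some genes are not reported here.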

Additional observations from a re-analysis of the deposited data

Results flagged for a closer look

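The share of UMIs in ribosomal protein genes differed in direction between the runs among all kept cells for the comparisons that involve spleen, and these differences were not tested. The log2 ratio of spleen to blood was −0.38 in run 1 and 0.43 in run 2. The log2 ratio of bone marrow to spleen was 0.10 in run 1 and −1.15 in run 2. Under 5 other settings the runs still differed in direction, with run 1 at 0.021 (1% limit), 0.028 (10% limit), 0.15 (no S100 genes), 0.16 (no S100 or granule genes) and 0.13 (only the 44 members not more than 4-fold lower in run 1). Bone marrow was below spleen in both runs under 4 settings, at −0.79 and −0.99 without other-lineage cells, −0.22 and −1.25 with the study's cell limits, −0.45 and −1.14 for the mean of cell shares and −0.077 and −1.17 among granule-low cells.

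On the CPM scale Rpl10 lay in opposite directions in the joint and at the IL-1β sites, each against the same healthy blood pool. The log2 ratio was 0.54 in the arthritic joint, −0.51 in the IL-1β lung and −0.79 in the IL-1β peritoneum. The difference was not tested, with 1 pool for each condition, and on the TMM scale all 3 values were above 0, at 1.09, 0.39 and 0.12.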

How the results depend on the processing

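Each comparison was repeated with other cell limits, scalings and tools. The setting without other-lineage cells also favours cells with few UMIs, so its values mix lineage and depth. For bone marrow against blood, the 10 called members (21.7% of all genes) became 19 with a 10% S100 limit (24.8%), 19 without cells holding other-lineage UMIs (19.4%), 6 with library totals (18.7%), 3 among granule-low cells (13.8%) and 0 without the run as a block (no pairing, 2.1001%), and leaving out 1 library gave 0 to 26 (0% to 29.99% of all genes). The 29 called genes of the other lists became 13 without other-lineage cells, 12 with DESeq2, 16 with library totals, 7 among granule-low cells and 1 without the block, and 0 to 53 without 1 library. For spleen against blood, 0 members (0.0512% of all genes) became 2 without other-lineage cells (0.374%), 1 with DESeq2 (0.211%), 1 among granule-low cells (0.0989%) and 0 to 12 without 1 library (0% to 2.98%), and 0 list genes became 1 with a 10% limit, 1 with no filter on low counts and 0 to 3 without 1 library. For bone marrow against spleen, 1 member (2.75% of all genes) became 36 without other-lineage cells (15.03%), 4 with DESeq2 (1.78%), 6 among granule-low cells (11.1%), 0 without the block (0%) and 0 to 24 without 1 library (0% to 14.3%), and 0 list genes became 17, 1, 9 and 0 to 17 under the same settings other than the block. A lone library left in a tissue is assumed to vary like the others.

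Directions of single members turned in a few settings, and the cause was not tested. Rpl22l1 in bone marrow against blood was −0.072 without other-lineage cells. In spleen against blood without spleen replicate 2, Rpl10a was −0.69 and Rpl12 −0.13, with 1.98 and 1.91 as the highest values without 1 library. In bone marrow against spleen, Rpl22l1 was −0.24 and Rpl36al −0.11 with the study's cell limits, Rpl22l1 −0.51 and Rps19bp1 −1.22 without other-lineage cells, Rpl22l1 −0.11, Rps19bp1 −1.07 and Rpl7l1 −0.13 among granule-low cells, Rpl22l1 −0.13 without bone marrow replicate 1 and −0.24 without spleen replicate 1 (0.82 at most), and Rpl12 0.29 without spleen replicate 2 (−1.76 at the lowest).

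The mean log2 ratio of the share was −0.84 for bone marrow against blood without other-lineage cells and −0.031 without S100 and granule genes. For spleen against blood it was −0.055 with a 10% limit and −0.38 to 0.43 without 1 library, and for bone marrow against spleen −1.15 to 0.10 without 1 library.

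In the inflammation library the log2 ratio of the share, in the order annotated granulocytes that also pass the 3% limit, no other-lineage cells, no S100 genes, mean of cell shares and TMM-scaled totals, was −0.53, −0.32, −0.31, −0.35 and −0.046 in arthritic blood, −1.01, −0.82, −0.90, −0.64 and −0.38 in the joint, −1.03, −0.82, −0.94, −0.90 and −0.10 in the lung, −1.25, −0.98, −1.12, −1.03 and −0.26 in the peritoneum, and −0.48, −0.50, −0.60, −0.29 and −0.34 for joint against arthritic blood. These are ratios of summed UMIs: without other-lineage cells the median cell share was 1.93% in healthy blood, below arthritic blood (2.77%) and the joint (2.16%). With all hashtagged cells the peritoneum was at −1.12. Of the members past 1.5-fold lower, with the share of all genes past it in parentheses, the 43 in arthritic blood (28.2%) became 18 without other-lineage cells (18.1%), 21 without S100 genes (15.003%), 7 on TMM-scaled CPM (5.18%) and 9 at 2-fold (6.30%). The 75 in the joint (42.8%) became 22 on the TMM scale (17.9%) and 43 at 2-fold (23.0%), the 78 in the lung (58.2%) 12 (28.3%) and 51 (44.1%), and the 80 in the peritoneum (58.9%) 23 on the TMM scale (28.5%). The 17 for joint against arthritic blood (20.1%) became 26 with the added limit (21.5%), 33 without other-lineage cells (25.7%), 40 without S100 genes (27.9%) and 2 at 2-fold (8.09%). On the TMM scale the log2 ratio of 21, 7, 26 and 14 members turned from below to above 0 in arthritic blood, joint, lung and peritoneum, of which 17, 2, 24 and 11 had an interval below 0 on the CPM scale. Rps27a and Rps4x in arthritic blood turned to 0.25 and 0.24, Rpl10 and Rps2 in the lung to 0.39 and 0.45, and Rps12, Rpl22l1, Rpl3l and Rpl7l1 in the peritoneum to 0.28, 0.43, 0.43 and 0.44.

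With 2 pools a tissue and 1 pool a condition, counting intervals cover only sampling of UMIs, and members low in run 1 rest mainly on run 2.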
